A study of Mus musculus with 16 samples.

Results

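All 13083 peaks of N6-methyladenosine (m6A, adenosine methylated inside an RNA chain) in the deposited peak table of this series were described by their difference between ovariectomy and sham operation. They lay in 6847 genes, and no peak was left out. The study profiled bone of wild type mice after ovariectomy, the removal of the ovaries, which takes away most estrogen, or after a sham operation, titled NC. Each arm had 4 libraries of RNA pulled down with an antibody to m6A (IP) and 4 input libraries of RNA before the pull-down, 16 in all. The title gave the arm, since the treatment field of all 8 IP libraries reads ovariectomy, including the 4 titled NC. Nothing in the labels says that the numbered libraries are different animals, so the deposited p-values may measure technical spread.

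The mark is placed by a writer complex built around Mettl3 and Mettl14 with partners such as Wtap, Virma, Zc3h13 and Rbm15. It can be removed by the erasers Fto and Alkbh5, and readers such as the Ythdf and Ythdc proteins bind it and act on the splicing, translation and decay of the RNA. The mark lies mostly in long internal exons and around stop codons, often in the sequence GGAC followed by A, C or T.

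Every value of a peak below is the authors' own, from the authors' deposited table, which holds 1 comparison per peak and no value of a single library. The log2 difference compares the enrichment of IP over input between the arms. Which arm is the numerator is not given in the sources used here, so differences are called positive or negative as deposited. A peak is called where the deposited p of its difference is under 0.05, and p is given as its log10, so that -2 stands for 0.01. A peak can cover several exons, here called blocks, and its width counts exonic bases only.

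The 8 markers of osteoblasts, osteocytes and osteoclasts checked in the RNA table were all present, from a mean normalized count of 1092.7 for Bglap (osteocalcin) to 99868 for Col1a1 (type I collagen). Of these 8 only Ibsp and Dmp1 carried an m6A peak. Among the 25 B cell markers 17 had a positive RNA difference in the authors' deposited table (adjusted p under 0.05), and none a negative one. Of the 30 skeletal muscle markers 9 had a negative one, as had 5 of 26 markers of marrow stroma, endothelium and adipocytes, where 1 was positive. Over all genes with an adjusted p, 6.07% had a positive call and 6.11% a negative one. In bulk bone, fewer cells of a type and less RNA per cell cannot be told apart. The part of these RNA differences in the m6A differences was not tested.

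The letters under a peak could be read for 83 peaks, those with at least 30 bases inside the RefSeq window that runs from 250 bases before to 50 after a gene's start on GRCm38.p6. Of these, 15 (18.1%) held GGAC followed by A, C or T on the RNA strand and 8 (9.64%) on the opposite strand. Over the last 50 bases of 32817 windows the shares were 15.4% and 14.4%. Of the 83 peaks 9 were called, 5 positive and 4 negative, and the 2 called ones that held the motif on the RNA strand are shown, with the motif in capitals.
Spg20, chr3:55112175-55112204, plus strand: cgggctcggagcGGACCgctggctacccgt
Dnajb1, chr8:83608328-83608357, plus strand: ggccatgggcaaGGACTactatcagacgct
Both lay at the start of the gene and both had a negative difference in the authors' deposited table. Spg20, which encodes spartin, a protein of lipid droplets and endosomes, had -0.25 (log10 p -1.54) at an enrichment of 2.31. Dnajb1, a co-chaperone of heat shock protein 70, had -0.36 (log10 p -1.57) at an enrichment of 1.45. A match is a description of these letters only.

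Most differences were small, and more were positive than negative. The median log2 difference over the 13083 peaks was 0.052, with quartiles of -0.09 and 0.18 and an SD over peaks of 0.27. Of all peaks 7923 (60.6%) were positive, 5150 negative and 10 exactly 0, and 73.7% lay within 0.25 of 0. Differences ran from -2.86 to 2.51, and 89 peaks reached 1 in size, 31 positive and 58 negative. The median mean count at those 89 was 354, against 2668 over all peaks, and only 15 of them were called. Not all lay in genes with little RNA, as the Ttn peak at -1.03 had a mean count of 63346. The median was positive on all 20 chromosomes, from 0.012 on chromosome 8 to 0.079 on chromosome 12.

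The authors' deposited table gave a call to 644 peaks (4.92%), 471 positive (3.6%) and 173 negative (1.32%). A p threshold of 0.05 marks 5% of peaks where p is spread evenly, so the share called was near that level. Peaks with p of 0.9 or more made up 18.4% of all. After the authors' adjustment, 3 peaks (0.0229%) had a false discovery rate (FDR) under 0.05. At p under 0.01 (1.44% of peaks) there were 137 positive (1.05%) and 51 negative ones (0.39%). The called positive peaks had a median difference of 0.28 and a median width of 201 bases, the called negative ones -0.46 and 151 bases.

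**Figure D1:**
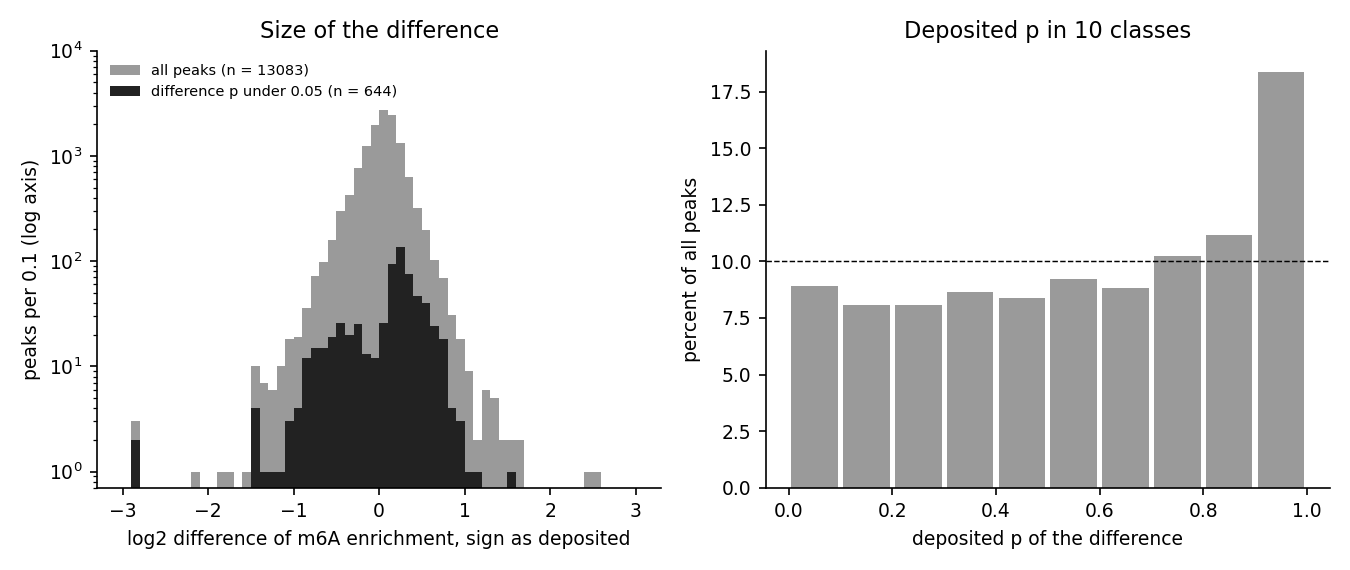
Left, number of peaks (log axis) by deposited log2 difference, for all 13083 peaks and the 644 called; right, percent of peaks in 10 classes of the deposited p, with a dashed line at an even spread. Most differences lie close to 0, and the last class of p holds 18.4% of the peaks.

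The 3 peaks that passed the FDR lay in Kif21b, Cdk13 and Hspd1. Hspd1, the mitochondrial chaperonin HSP60, had -0.43 (log10 p -5.63) at a peak on chromosome 1, 55082123 to 55083749, minus strand, which covers 150 bases in 3 blocks and was enriched 1.76-fold in the authors' deposited table. All 3 Hspd1 peaks were negative, the others not called, and the weakest was at -0.0044. Cdk13, a kinase that phosphorylates RNA polymerase II, had 0.15 (log10 p -8.11) at a peak of 101 bases (chromosome 13, 17764988 to 17765088, minus strand), and of its 4 peaks 2 were positive and 2 negative. Kif21b, a kinesin motor protein, had only 0.052 at an enrichment of 1.16, yet a log10 p of -434 (chromosome 1, 136144726 to 136145134, plus strand). That p stood far outside the rest of the table, for a peak of 101 bases.

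The other positive peaks with the smallest p came from 6 genes. Dnajc8, a co-chaperone bound to splicing factors, had 0.24 (log10 p -4.68) over 7 blocks, and Trim30a, an interferon-induced regulator of innate immunity, 0.43 (log10 p -4.52). Osbpl9, a lipid transfer protein, had 0.33 (log10 p -4.45), and the RNA helicase Ddx10 0.30 (log10 p -4.19) with a second called peak at 0.22. The cytoskeletal linker Dst had 0.49 (log10 p -3.61), and Tspyl1, of the nucleosome assembly family, 0.37 (log10 p -3.57). All of these are single peaks of the authors' deposited table, and Dst had 10 positive and 7 negative peaks in all.

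Among negative peaks, Hspd1 was followed by Lyn, a Src family kinase of B cells and myeloid cells, at -0.63 (log10 p -4.61), and Pagr1a, a partner of the Kmt2c and Kmt2d histone methyltransferases, at -0.78 (log10 p -4.01). The ribosomal protein gene Rpl6 had only -0.072 (log10 p -3.89) in the authors' deposited table. Coagulation factor V (F5) had -0.67, the mitochondrial carrier Ucp2 -0.40, the interleukin 17 receptor Il17ra -0.27 and the tyrosine kinase Abl1 -0.79. These 4 had log10 p between -3.36 and -3.13. The 4 peaks of Abl1 were all negative, while 5 of the 7 peaks of F5 were positive.

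The called peaks with the largest differences were not those with the smallest p. On the positive side they lay in Map7d3 (1.52, log10 p -1.42), a microtubule-associated protein, Ankrd26 (1.20, -2.16), the ubiquitin ligase subunit Dtx3l (0.94, -2.09), Fam219b (0.92, -1.51), the ubiquitin ligase G2e3 (0.91, -1.80) and the Wnt receptor Fzd7 (0.89, -2.02). On the negative side the largest difference was -2.86 (log10 p -1.96), given for Fam177a and Fam177a2 at the same coordinates (chromosome 12, 55212195 to 55213904), so it is 1 signal listed for 2 genes. It was followed by the kinase Tesk1 (-1.44, log10 p -1.64), by Plac9b (-1.43) and Plac9a (-1.41), whose peaks overlap each other, and by Tchh, a hair and tongue filament protein (-1.32, log10 p -1.43). Which gene of an overlapping pair a value belongs to is uncertain. Overlap with a peak of another gene was found for 102 of all peaks (0.78%), 15 of them called.

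**Figure D2:**
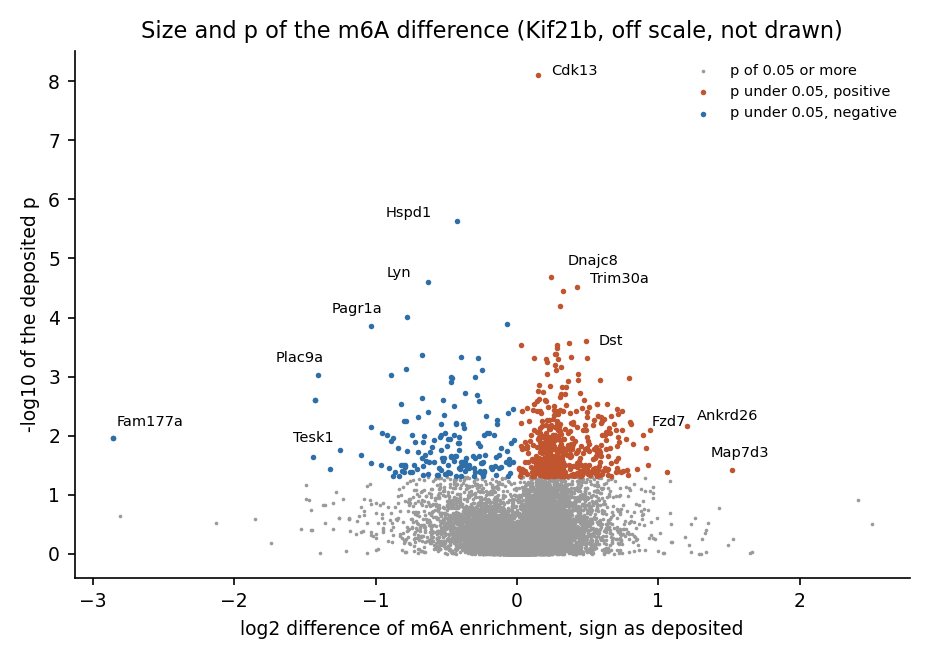
Deposited log2 difference against -log10 of its p for each peak, with the called positive and negative peaks coloured and Kif21b off scale and not drawn. Large differences are found at modest p, and many small differences reach p under 0.05.

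Across 7 classes of p, the median size of the difference was 0.30 under 0.001, 0.35 from 0.001 to 0.01, 0.30 from 0.01 to 0.05, 0.26 from 0.05 to 0.1, 0.24 from 0.1 to 0.3, 0.15 from 0.3 to 0.8 and 0.068 at 0.8 or more. Size thus fell as p grew, apart from the class under 0.001, which held 36 peaks.

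The share of positive differences depended on how many blocks a peak covered. Peaks of 1 block were 52.9% positive with a median of 0.015, and those of 2, 3, 4 and 5 or more blocks were 67.2%, 75.7%, 79.7% and 83.9% positive, with medians of 0.077, 0.096, 0.11 and 0.13. The share called went from 3.49% to 16.3% between the ends of that range in the authors' deposited table. Of the 471 positive calls 321 were at peaks of 2 or more blocks, and of the 173 negative calls 123 were at peaks of 1 block.

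Width went with the sign among peaks of 2 or more blocks, whose share positive climbed from 60.8% at up to 120 bases to 82.5% over 350. Among 1-block peaks it stayed between 50.8% and 52.5% up to 350 bases and was 66.3% above. Among peaks of over 220 and up to 350 bases, 52.5% of the 1-block peaks and 77.9% of the others were positive. On the plus strand 64.3% of 7933 peaks were positive, with 345 positive and 81 negative calls, and on the minus strand 54.8% of 5150, with 126 and 92. The median was higher on the plus strand on 20 of 20 chromosomes. Among 1-block peaks of the minus strand the median was -0.0090 and 48.5% were positive. The cause of either pattern was not tested.

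**Figure D3:**
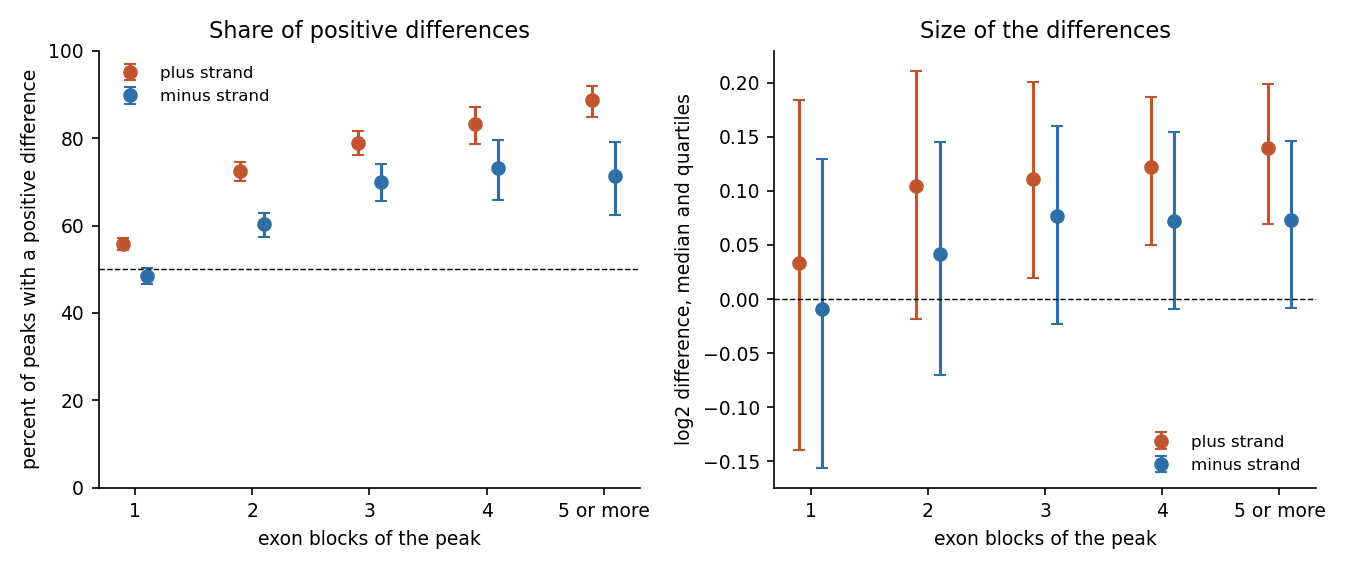
Left, percent of peaks with a positive difference with its exact 95% binomial interval, by number of exon blocks and strand; right, median log2 difference with quartiles for the same classes. The share positive is lowest at 1 block on both strands (55.8% plus, 48.5% minus), and the plus strand lies above the minus strand in each class.

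Enrichment and RNA level went with the difference too. From peaks enriched under 1.5-fold to those enriched 3-fold or more, the share positive climbed from 55.4% to 71.6%. From genes with a mean count under 500 to those with 5000 or more it went from 51.9% to 67.5%, while the SD over peaks narrowed from 0.45 to 0.18 and the share called went from 2.09% to 7.70%. Between those RNA classes, peaks of 2 or more blocks went from 20.6% to 54.1% and plus-strand peaks from 71.4% to 55.7%. Between the enrichment classes, plus-strand peaks went from 54.6% to 76.1%, and peaks of 2 or more blocks from 39.3% to 39.9%. The part of block number and strand in these patterns was not tested. Along the gene, each peak was placed by its midpoint in 1 of 5 equal parts of the gene's genomic span, introns included. The share positive was 58.9% in the first part and 57.5% in the last, which held 6263 peaks. It lay between 62.6% and 65.6% in the middle ones. Peaks of 2 or more blocks made up 43.8% of the first part and 25.3% of the last. Among 1-block peaks the share positive lay between 51.9% and 54.6% in all 5 parts, and among the others it was 67.8% in the first and 71.8% in the last.

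Peaks of the same gene agreed in sign only slightly more often than peaks of different genes. Of 3161 genes with 2 or more peaks, 913 (28.9%) had only positive differences, 370 (11.7%) only negative ones and 1878 (59.4%) other combinations in the authors' deposited table. Pairs of peaks within a gene shared the sign in 55.7% of 13772 pairs, against 52.2% of pairs in different genes. With differences of at least 0.25 the shares were 58.1% and 50.8%. The SD of peaks around their gene's mean was 0.25, against 0.26 over the same 9389 peaks. Neighbouring peaks of a gene had a Pearson correlation of 0.079 and a Spearman correlation of 0.095 over 6236 pairs. These pairs share the gene's input reads, strand and library depth.

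By the same rule 603 genes (8.81%) had a called peak, and 39 had 2 or more. Of these 39, 30 had only positive calls, 5 only negative calls and 4 calls of both signs, where 73.1% of all called peaks were positive. The 5 include Evi2 and Evi2b, whose peaks overlap at 1 locus. No gene had more than 3 called peaks, a number reached by Golga4 and Ttn. The 878 uncalled peaks of genes with positive calls were 69.0% positive, against 60.0% over all uncalled peaks. The 340 uncalled peaks of genes with negative calls were 48.2% negative, against 40.0%. The shares over all uncalled peaks were not matched for strand, block number or RNA level, which all went with the sign. Of the positive calls 73.2% were on the plus strand, as were 60.6% of all peaks. Among all peaks of that strand 64.3% were positive.

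Golga4, a golgin of the trans-Golgi network, had 9 peaks, all positive, from 0.11 to 0.25, and its 3 called peaks (0.17, 0.25 and 0.20) were the first, the fourth and the seventh from the 5′ end in the authors' deposited table. The transcription factor Mef2c had 4 positive peaks, 2 of them called (0.22 and 0.29), and the muscle gene Trdn, which encodes triadin, had 3 positive peaks from 0.28 to 0.38. Ssrp1, a histone chaperone, and Smc1a, a cohesin subunit, had 3 positive peaks each, from 0.12 to 0.20 and from 0.12 to 0.21. Mdn1, an ATPase of ribosome assembly, had 2 called positive peaks among 6, of which 2 were negative. In Zfp106 all 5 peaks were positive, up to 0.57. Atp11b, a phospholipid flippase, and Lrrcc1, a centrosomal protein, each had 2 positive calls and 1 negative peak without a call.

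Ttn, the giant spring protein of the sarcomere, had 35 peaks, more than any other gene, with 18 positive and 17 negative. Its 3 called peaks were all negative, at -1.03, -0.46 and -0.79 in the authors' deposited table, and were the 20th, 22nd and 23rd from the 5′ end. They lay on chromosome 2 between 76724967 and 76730111. The muscle myosin Myo18b had 2 negative calls among 9 peaks, 7 of them negative, and plectin (Plec), a cytoskeletal linker, 2 negative calls among 10. Evi2 and Evi2b also had 2 negative calls each, but their peaks overlap at 1 locus and count as 1 signal.

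Calls of both signs were made in 4 genes. Bcl11a, a zinc finger repressor of fetal globin, had -0.30 and 0.45 at peaks of 250 and 249 bases less than 4 kilobases apart. Ankrd35 had -0.79 and 0.25 at neighbouring peaks, Clspn, a replication checkpoint protein, 0.29 and -0.38, and the RNA-binding protein Prrc2c -0.18 and 0.038. All 8 of these values are from the authors' deposited table and had log10 p between -2.42 and -1.42.

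Of the 716 genes with 4 or more peaks 109 were positive throughout and 21 negative throughout. Golga4, Tpr (a nuclear pore basket protein), Zc3h13 (a writer subunit) and Ash1l (a histone methyltransferase) each had 9 positive peaks, with medians of 0.19, 0.12, 0.20 and 0.11. Of their peaks 3, 1, 1 and 2 were called. Crybg3 had 8 negative peaks, none called, with a median of -0.18. Itpkb (an inositol kinase) had 5 negative peaks, with a median of -0.14 in the authors' deposited table, and Abl1 had 4. The long noncoding RNA Neat1 had 5 negative rows with a median of -0.053, but some of its rows overlap each other, and they cover only 3 separate sites. Rows of 1 gene overlapped each other only in Neat1 and Cebpa, 6 rows in all. Behind Ttn by number of peaks came Syne1 with 19, Mki67 with 18 and Dst with 17. Mki67, the proliferation antigen, had 15 positive peaks, and its only called peak was negative (-0.25, log10 p -3.11).

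**Figure D4:**
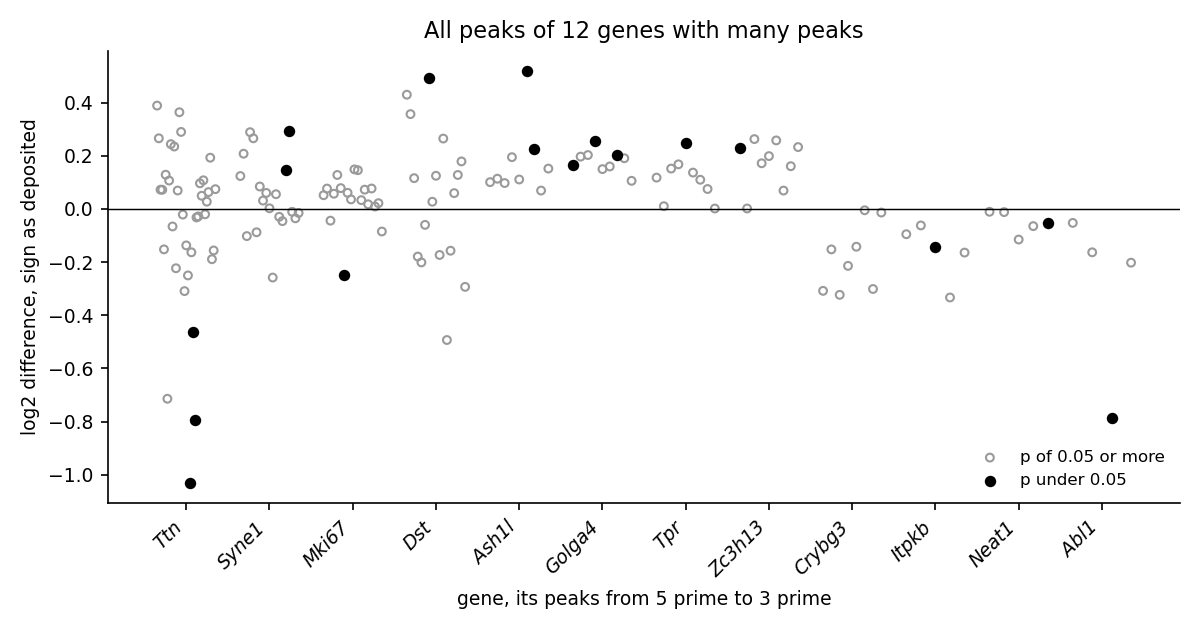
Deposited log2 difference of every peak of 12 genes, in order from the 5′ to the 3′ end, with called peaks filled. Ttn spans both signs with 3 called peaks far below 0, while Golga4, Tpr, Zc3h13 and Ash1l stay above 0 and Crybg3, Itpkb, Neat1 and Abl1 below.

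The writers of the mark carried peaks themselves. Of 11 genes listed, 7 had a peak, and 19 of their 24 peaks (79.2%) were positive. The exact binomial interval of that share, 57.8% to 92.9%, holds the 60.6% positive over all peaks. Their median was 0.17, against 0.052 over all peaks. Zc3h13 alone gave 9 of the 24 peaks, all positive, while Mettl14, Mettl16 and Rbm15b each had 1 peak of each sign. The 2 calls were 8.33% of the list's peaks, where 4.92% of all peaks were called. The called ones were Wtap (0.24, log10 p -1.86) and Zc3h13 (0.23, log10 p -1.32) in the authors' deposited table. All 3 peaks of Wtap and all 3 of Virma were positive, while the RNA-binding subunit Rbm15 had 2 of its 3 below 0. Among 17 erasers and readers, 11 had a peak, with 16 of 25 positive and a median of 0.057. Eif3a, a translation initiation subunit, was called positive (0.16, log10 p -2.42), and the reader Ythdf1 was called negative (-0.88, log10 p -1.96).

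In bone genes, 3 of 26 peaks of the osteoblast and matrix list were called, all positive, with a list median of 0.020. That is 11.5% of the list, with an exact 95% binomial interval of 2.45% to 30.2% that holds the 4.92% called over all peaks. They were Spp1, which encodes osteopontin (0.15, log10 p -1.61), and the osteocyte proteins Mepe (0.13, log10 p -1.45) and Dmp1 (0.023, log10 p -1.32) in the authors' deposited table. Of the 26 peaks 14 (53.8%) were positive and 12 negative, against 60.6% positive over all peaks. The list's uncalled peaks included Runx2, the osteoblast transcription factor, at 0.36, and Pth1r at -0.37 and Col5a1 at -0.26. Both peaks of Tnc and both of Phex were below 0. None of the 14 peaks of the osteoclast list was called. Their median was -0.10 and 10 were negative, among them both peaks of Nfatc1, the master factor of osteoclasts, and of Csf1, a growth factor for their precursors. The decoy receptor Tnfrsf11b, osteoprotegerin, had -0.31 without a call. The 4 positive peaks of the osteoclast list included those of Fos (0.20) and Mmp14 (0.061).

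Collagens and matrix enzymes had a median of -0.063, with 32 of 50 peaks negative. Over all collagen genes, a set taken by symbol after the list's values were seen, 33 of 45 peaks were negative, and among their peaks of 2 or more blocks 27 of 36, where 72.0% of such peaks in the whole table were positive. The 3 called peaks were nonetheless positive in the authors' deposited table, in the cartilage collagens Col9a1 (0.74, log10 p -2.42) and Col11a1 (0.27, log10 p -1.44) and in Col3a1 (0.21, log10 p -1.87). In Col22a1, Col12a1, Col24a1 and Col6a1 every peak was below 0, without a call.

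The signalling lists had 1 call each, where 4.92% of all peaks were called. Of 48 Wnt peaks 1 (2.08%) was called, in Fzd7, and of 32 peaks of the BMP and TGF-beta list 1 (3.12%), in the inhibitory Smad7 (0.61, log10 p -1.41). The list of estrogen receptors and targets, which also held coactivators, had a median of -0.029 over 32 peaks. Of these peaks Ep300 gave 8, Crebbp 5 and Med1 4, while the receptor Esr1 gave 1, so the median is not one of receptors. The coactivator Ep300 had the only call (0.20, log10 p -1.50), and the receptor Esr1 had 1 uncalled peak at -0.13 in the authors' deposited table.

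The blood and muscle lists held few calls each, to be read beside the 3.6% of all peaks called positive and the 1.32% called negative. Of 37 B cell peaks 4 were called, with Ikzf3 (0.29, log10 p -3.29) and Ikzf1 (0.29, log10 p -1.95), lymphoid transcription factors, positive, and Cd79b, a subunit of the B cell receptor complex, negative (-0.52, log10 p -2.35). The kinase Syk was the other negative call. Of 16 neutrophil and monocyte peaks 3 were called, all positive, in Mmp8, Cybb and the mannose receptor Mrc1 (0.24, 0.32 and 0.45 in the authors' deposited table). Cybb also had 2 negative peaks without a call. The erythroid list had 2 calls of each sign over 32 peaks, with the negative ones in Slc4a1, the anion exchanger band 3 (-0.26), and Epb41, a protein of the red cell membrane skeleton (-0.11). By RNA, 8 of 19 erythroid markers with an adjusted p had a positive call, and 0 of 26 neutrophil and monocyte markers a call of either sign. Of 96 skeletal muscle peaks 8 were called, 2 positive and 6 negative, of which 3 were in Ttn. The stroma, endothelium and adipocyte list had 1 call in 41 peaks, in the lipid droplet gene Plin4 (-0.72), whose 4 peaks were all negative. Of 45 interferon response peaks 3 were called, in the antiviral kinase Eif2ak2 (0.23), in Dtx3l and in the ubiquitin ligase Rnf213 (-0.84).

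Chaperones had the largest share called among the 20 lists, 9 of 38 peaks, but the list was drawn up knowing the value of Hspd1, and it held by mistake Hspg2, a matrix proteoglycan (-0.66). Without Hspg2, 8 of 37 peaks were called, 6 positive and 2 negative. Besides Hspd1 and Dnajb1, which were negative, they included Dnaja1 (0.074), Hsp90ab1 (0.18) and Hspe1, the partner of Hspd1 (0.076), in the authors' deposited table. Kinesins had 2 calls in 68 peaks, Kif21b and Kif3a, and the proliferation list 6 in 116, 5 of them positive, in genes such as Prc1 and Smc4, and the negative one, in Mki67, with the smallest p. Transcription kinases and Mediator had 6 calls in 67 peaks, 3 of each sign, among them Cdk13 (0.15), the polymerase subunit Polr2a (-0.53) and the elongation factor Supt5 (-0.026). None of the 3 peaks of the mitochondrial respiration list was called. Chromatin regulators had 15 calls in 226 peaks, 11 of them positive, led by the polycomb subunit Suz12 (0.40 and 0.21). Over all lists 74 of 1010 peaks (7.33%) were called, Hspg2 included, against 4.92% over all peaks. The lists were chosen with earlier results of these data known, so this gap is no result about them. The share called also went with RNA level, up to 7.70% in genes with a mean count of 5000 or more. A positive median was found in 15 of the 20 lists, as over all peaks (0.052), of which 60.6% were positive.

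**Figure D5:**
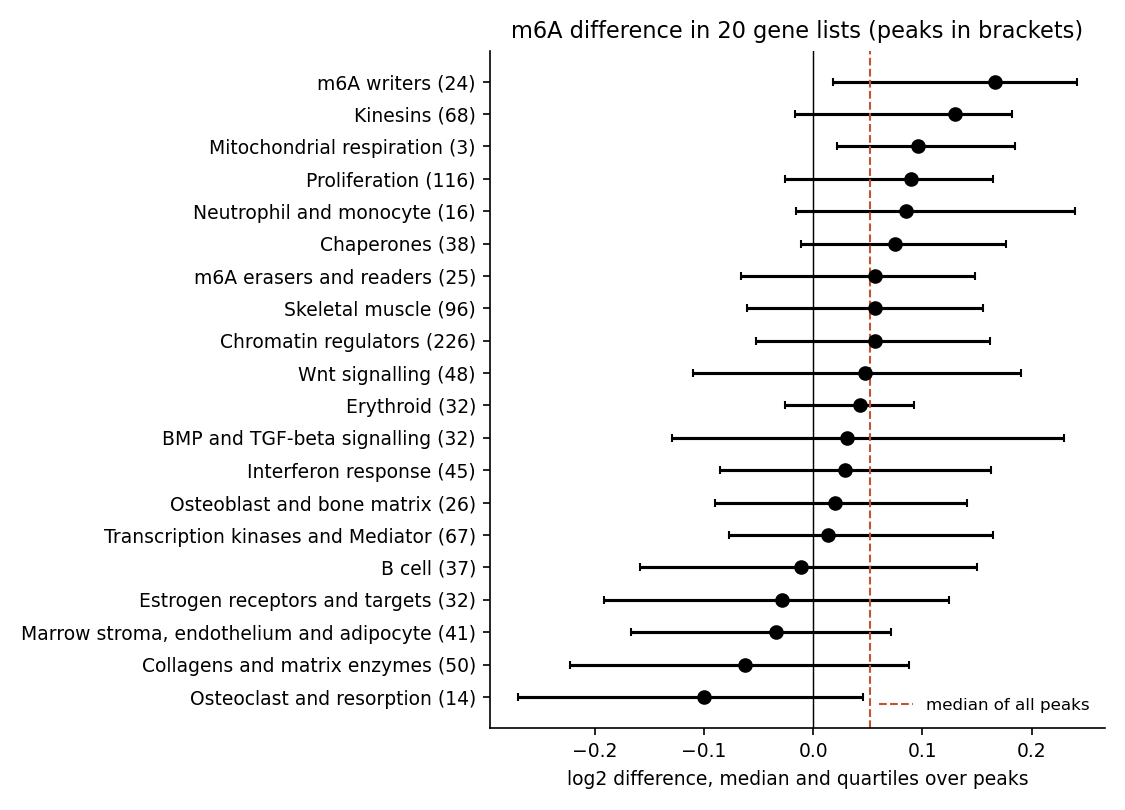
Median log2 difference with quartiles over the peaks of each of 20 gene lists, with the number of peaks in brackets and a dashed line at the median of all peaks. Medians run from -0.10 for the osteoclast list to 0.17 for the writers, and the quartiles overlap between lists.

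The m6A and RNA comparisons use the same input libraries, so their values are only set side by side, as log2 values with the sign of each table. Among genes with a called peak and an adjusted RNA p under 0.05, which 12.2% of tested genes reached, Ikzf3 had 0.29 for m6A and 0.65 ± 0.23 (SE) for RNA, and Dtx3l 0.94 and 0.60 ± 0.19. The ubiquitin-like Ubl5 had 0.74 and 0.50 ± 0.11. Positive m6A stood beside negative RNA in Dst (0.49 and -0.97 ± 0.21), Trdn (0.38 and -1.71 ± 0.62) and Osbpl9 (0.33 and -0.26 ± 0.08). Negative m6A stood beside positive RNA in Cd79b (-0.52 and 0.95 ± 0.24), Hspd1 (-0.43 and 0.21 ± 0.06) and Ucp2 (-0.40 and 0.41 ± 0.10), and both were negative in the anion transporter Slc26a8 (-0.89 and -0.88 ± 0.15) and the myosin Myh14 (-0.92 and -1.61 ± 0.41). Each m6A value is that of 1 peak, the called one with the smallest p, and not of the whole gene. The other peak of Ikzf3 was at -0.12, and the median over all peaks was 0.34 in Dtx3l, 0.060 in Dst and -0.19 in Myh14. All peaks of Ubl5, Trdn and Hspd1 had the sign given, and Osbpl9, Cd79b, Ucp2 and Slc26a8 had 1 peak each. The SE is that of the RNA difference, from the authors' deposited table.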

How the data were processed

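The samples were 4 IP and 4 input libraries per arm, grouped by title. Per the submitters' processing notes, HISAT2, StringTie, DESeq and the rat build rn6 were used, in roles not stated. The samples are mouse, and of 13026 peaks whose symbol is in RefSeq on GRCm38.p6 13000 (99.8%) lay within that gene. How peaks were called and whether replicates were pooled is not stated in any source at hand. Per the file headers, the authors deposited for each peak a p-value against input, log10 values of p and FDR, the enrichment of IP relative to input (a fold ratio), and the log2 difference between the arms with its log10 p and FDR. For RNA they deposited the signal as a mean normalized count, the log2 fold change, its SE, a Wald score and p-values. Library depths are not in these tables, so precision per library is unknown and no test could be run here.

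Peaks with a deposited difference p under 0.05 were counted as called. Pairs of peaks, neighbouring peaks, 20 gene lists and classes of peaks were counted in Python 3.11.15 with numpy 2.4.6, pandas 2.3.3 and scipy 1.17.1, and figures drawn with matplotlib 3.10.9. Binomial intervals cover counting error only. The counting of signs and agreement was tested on simulated data. Motifs were sought in RefSeq gene start windows, because no genome was used here. Members, lists and settings were chosen with earlier results of these data known. Genes were named by 8 rules: smallest p (8 peaks per sign), largest called difference (6 per sign), several calls of 1 sign or of both signs (up to 10 genes), up to 3 per list, 4 per combination with RNA, most peaks, and 1 sign over 4 or more peaks. Predicted genes were left out. Other list members and genes with readable letters were named after their values were seen. A gene that the rules take is not reported here.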

Additional observations from a re-analysis of the deposited data

How the results depend on the processing

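Of 53 values recomputed under other settings, 20 stayed near the main value (a count within 1.5 times, a median or share within the main value's 95% interval) and 33 moved. Only a median could be labelled reversed, by a change of its sign, and 0 were. Counts and shares could not be labelled so, and their 0 reversals say nothing about direction. Counts that stayed by the wide bound of 1.5 times include 123 negative calls at 1 block, 321 positive ones at more blocks and 345 positive ones on the plus strand. Settings by block number above 1, by strand and without overlapping genes were added after seeing the data. The 471 positive and 173 negative calls became 137 and 51 at p under 0.01, 2 and 1 at an FDR under 0.05, 92 and 77 with a difference of at least 0.5, and 194 and 43 at an enrichment of at least 2. Peaks of 1 block held 150 positive calls, those of 2 or more blocks 50 negative ones, the plus strand 81 negative ones, and the minus strand 126 positive and 92 negative ones. The median of 0.052 and the share positive of 60.6% became 0.068 and 65.0% at an enrichment of at least 2, 0.015 and 52.9% for 1 block, 0.092 and 72.0% for more blocks, 0.074 and 64.3% on the plus strand, and 0.021 and 54.8% on the minus strand. Genes of 1 sign, 40.6% of those with several peaks, were 24.9% with 3 or more peaks, 50.3% with differences of at least 0.1 and 51.3% at an enrichment of at least 2. Genes with several calls, 30 positive, 5 negative and 4 of both signs, were 4, 0 and 0 at p under 0.01 and 82, 16 and 24 at p under 0.10; without peaks that overlap another gene's, the negative ones were 3. The cause was not tested, beyond the smaller number of peaks or genes in each class. No paired analysis was possible because the tables hold no value of a single library, and leaving out a library could not be run for the same reason. Library depth is not in the tables; by mean count of the gene, 2.09% of peaks were called under 500 and 7.70% at 5000 or more, with SDs of 0.45 and 0.18.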
